A study of Saccharomyces cerevisiae with 28 samples.

Results

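The comparison described here is the effect of the histone allele H3H113N in budding yeast (Saccharomyces cerevisiae) that lack CCS1, grown in synthetic complete medium (SC). Its members are 4 of the 28 poly(A)+ RNA-seq libraries of the study, chosen by their labels. They are 2 libraries of H3H113N-dCcs1-SC (the H3H113N allele with the CCS1 deletion) and 2 libraries of dCcs1-SC (the CCS1 deletion with wild-type H3). Both groups were BY4741, a haploid MATa laboratory strain of S288C descent, and both lacked CCS1. The libraries H3H113N-SC and WT-SC, with 3 libraries each and CCS1 present, came from the same medium and the same library kit (TruSeq for NeoPrep). SC cultures were started at an OD600 of 0.05, grew for 5 doublings and were in exponential phase, and per the labels the time in culture could differ between strains. No label says whether the replicates of a group were separate cultures or clones, so the spread between replicates may be technical. The p-values rest on the spread within 12 groups of the study, in 26 libraries, of which these 4 are a part.

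Histone H3 pairs with H4 in a tetramer at the centre of the nucleosome, and the histidine that the allele replaces, H113, lies at the face where the H3 copies meet. The study addressed whether this tetramer helps yeast to use copper. Ccs1 is the chaperone that hands copper to the superoxide dismutase Sod1, and cells without it have a superoxide dismutase that is largely inactive. In budding yeast H3 is encoded by HHT1 on chromosome II and HHT2 on chromosome XIV, each beside a gene for H4 (HHF1 and HHF2). The reference sequences around the codon that the allele changes are shown because both genes encode this histidine in different surrounding codons. They were read from the RefSeq assembly R64, on the coding strand, at chrII:256649-256693 for HHT1 and chrXIV:575688-575732 for HHT2, and lie within the coding exon. Capitals mark the codon of H113, counted without the initiator methionine.
HHT1: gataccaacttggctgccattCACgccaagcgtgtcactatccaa
HHT2: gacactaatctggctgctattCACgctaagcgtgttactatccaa
The labels do not say which of the H3 genes carries the allele, and these are sequences of the assembly, not of the strains.

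The label of the CCS1 deletion held in the counts. CCS1 had 1 and 0 reads in H3H113N-dCcs1-SC, against 0 and 0 in dCcs1-SC, while it had between 109 and 162 RPKM in H3H113N-SC and between 113.3 and 158 RPKM in WT-SC. RPKM is reads per kilobase of ORF, scaled to the counted reads of the library. With both groups at the floor of 3 counts, no fold is given for it. Counted reads were 2894677 and 1679959 in H3H113N-dCcs1-SC, against 3311739 and 1864730 in dCcs1-SC. In both groups replicate 2 was the shallower and had more RNA of HXK1, a hexokinase gene repressed by glucose, at 225 and 1173 RPKM against 203 and 892 RPKM. LEU2, MET17 and URA3, which BY4741 lacks, had no reads in the 4 libraries. HIS3, the other gene on the list of BY4741 deletions, did have reads in both groups (log2 fold change -0.06). The strain check had asked only for LEU2, MET17 and URA3 to be without reads. STE2, the receptor of MATa cells, had 396 and 235 RPKM against 583 and 328 RPKM. It is 1 of 8 mating-type genes on the list of label checks, and levels of the others are not given here.

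The allele was accompanied by higher RNA from most genes of chromosomes I and II. RNA of 15 genes was lower, with the smallest adjusted p for TAL1 of the pentose phosphate pathway and TRX1, a cytoplasmic thioredoxin. Among rises off those chromosomes were PET18, the stress gene GRE1 and SNZ1 of vitamin B6 synthesis. No gene of copper uptake, copper delivery or superoxide removal passed this test, and neither did most ORFs of the genome. Of 6592 open reading frames (ORFs) tested, 82 were called at an adjusted p under 0.05 by edgeR's quasi-likelihood test with Benjamini-Hochberg adjustment, or 1.24% of those tested. Of these, 67 were higher in H3H113N-dCcs1-SC (1.02%) and 15 were lower (0.228%), 58 and 12 of them at least 2-fold. The RPKM of the groups did not overlap for any called ORF, nor for 38.3% of all ORFs tested.

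The number of calls depended on the libraries and on the tool. The fit that gave 82 calls took its spread from 26 libraries, whereas no ORF was called by edgeR from the 4 libraries alone (455, or 6.94%, at an unadjusted p under 0.05) or from the 10 SC libraries (491, or 7.47%), against 888, or 13.5%, in the fit of 26. Without dCcs1-SC replicate 1, dCcs1-SC replicate 2 or H3H113N-dCcs1-SC replicate 2 the calls numbered 3, 6 and 7 (0.0455%, 0.091% and 0.106% of the ORFs tested), and without WT-SC replicate 3 they numbered 130 (1.97%). DESeq2 called 233 (3.53%), and limma called 173 (2.62%) with a pseudocount of 1 RPKM and 154 (2.34%) with 0.1. TAL1 and TRX1 were the only ORFs called by edgeR whichever of the 4 libraries was left out. Of all calls 81.7% were higher, against 94.4% on plain library totals (167 higher, 2.53%, and 10 lower, 0.152%) and 70.6% with each chromosome centred at its own median (12 higher, 0.182%, and 5 lower, 0.0758%). On library totals the median ORF was itself 0.21 higher on the log2 scale, and fold changes here are relative to TMM scaling, on which that median was -0.0002.

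Whole chromosomes stood above the rest of the genome in both libraries with the allele. The shift of a chromosome is the median log2 ratio of its ORFs in 1 library to the mean of the dCcs1-SC libraries, less the same median over all nuclear ORFs. Chromosome I had shifts of 0.80 and 0.72 in H3H113N-dCcs1-SC, a mean 1.69-fold level, and chromosome II had shifts of 0.72 and 0.73, a mean 1.65-fold level. Chromosome XI had smaller shifts of 0.29 and 0.43, and chromosome IX of 0.24 and 0.28. The other 12 chromosomes lay between -0.23 and 0.08 in these libraries, and every chromosome lay between -0.06 and 0.06 in the dCcs1-SC libraries, which are symmetrical because they form the baseline. The libraries with the allele did not overlap the dCcs1-SC libraries on any of the 4 shifted chromosomes. No test was run, since 2 libraries against 2 cannot give an exact two-sided permutation p below 0.333.

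**Figure D1:**
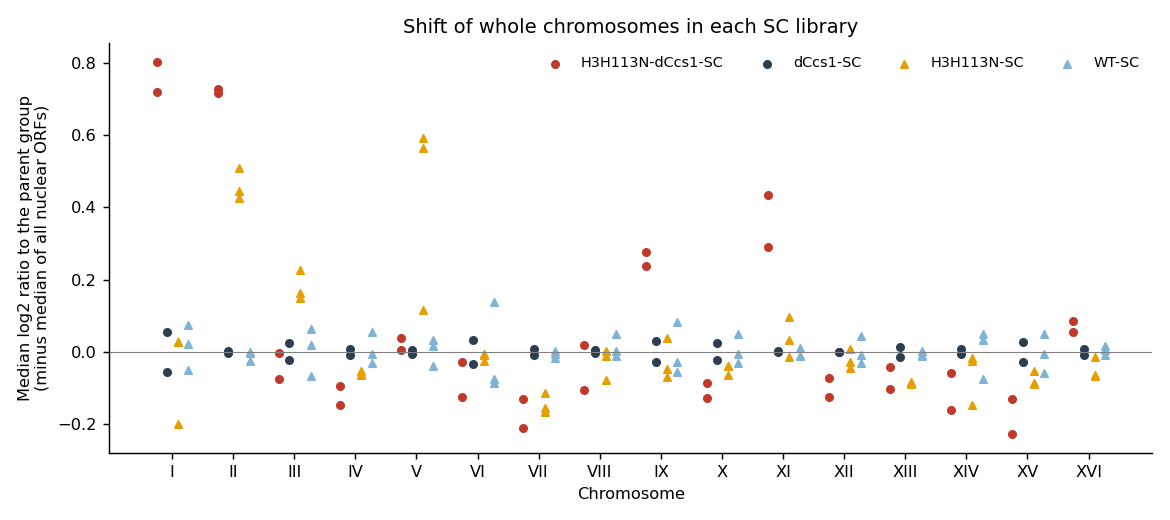
Shift of each chromosome (y axis, log2 ratio to the parent group less the median of all nuclear ORFs) in each SC library, 1 point per library, with H3H113N-dCcs1-SC and dCcs1-SC set against dCcs1-SC, and H3H113N-SC and WT-SC set against WT-SC. Both H3H113N-dCcs1-SC libraries lie between 0.72 and 0.80 on chromosomes I and II, and between 0.24 and 0.43 on IX and XI.

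The shift ran along the whole of chromosomes I and II. Of the ORFs tested there, 95.6% on chromosome I and 94.1% on chromosome II had a fold change above 0, as had 82% on XI and 76.4% on IX. When chromosome II was divided into 5 blocks of ORFs from left to right, the mean shift of the blocks lay between 0.69 and 0.75. On chromosome I the 5 blocks, some with only 17 ORFs, lay between 0.53 and 0.90. Blocks of XI lay between 0.20 and 0.46 and those of IX between 0.15 and 0.47, with the highest of IX at its right end. The number of DNA copies of each chromosome is not measured by RNA counts, and its part in these levels was not tested.

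**Figure D2:**
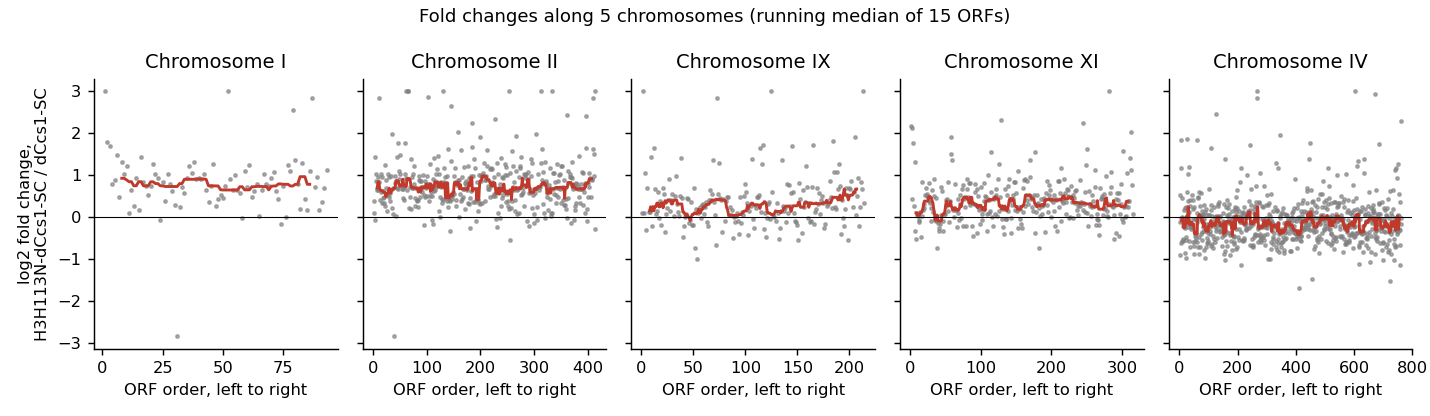
Log2 fold change of H3H113N-dCcs1-SC over dCcs1-SC (y axis) for each ORF in order from the left to the right end of chromosomes I, II, IX, XI and, for contrast, IV (x axis, rank of the ORF). Grey points are ORFs, with values beyond 3 in either direction drawn at 3, and the red line is a running median of 15 ORFs. The line stays above 0 along chromosomes I and II and mostly below 0 along IV.

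The same strain showed the same 4 chromosomes in other media. In SC without lysine (SC-lys), where cultures started at an OD600 of 0.4 and were kept for 24 h, the H3H113N-dCCs1-SC-lys libraries had shifts against dCCs1-SC-lys of 0.89 and 0.84 on chromosome I and 0.73 and 0.70 on II. Those on XI were 0.26 and 0.24, and those on IX were 0.25 and 0.36. The single library with 75 µM CuSO4 had 0.75, 0.72, 0.35 and 0.27 on I, II, XI and IX. Where CCS1 was present, the H3H113N-SC libraries had 0.03, -0.20 and 0.03 on chromosome I, 0.51, 0.44 and 0.43 on II, and 0.12, 0.56 and 0.59 on V, all against WT-SC. WT-SC libraries lay between -0.09 and 0.14 around their own mean.

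Most rises lay on these chromosomes. Chromosomes I and II hold 8.68% of the tested ORFs (572) and held 46 of the 67 higher calls (68.7%), 10 on I and 36 on II, while IX and XI held 5. The median log2 fold change of the higher calls was 1.24 on I and 1.27 on II, where the mean shifts were 0.76 and 0.72. Calling favours ORFs with large values, so these medians cannot show a rise beyond the shift. With each chromosome centred at its own median, none of these calls passed, though some values stayed large, such as 3.00 for LDS1, 2.58 for RRT1 and 2.34 for ECM13. That setting also lost calls off these chromosomes, where 17 of 31 were kept, and ADK1 (-1.32) and ARO9 (2.82) were among those lost. CDC24, which encodes the exchange factor of the GTPase Cdc42 on chromosome I, had 80.9 and 108 RPKM in H3H113N-dCcs1-SC against 44.7 and 34.3 RPKM in dCcs1-SC (log2 fold change 1.03, SE 0.19, adjusted p = 0.0137). CMD1, the calmodulin gene of chromosome II, had 396 and 885 RPKM against 246 and 238 RPKM (1.15, SE 0.27, adjusted p = 0.0425), and MEC1, the checkpoint kinase gene of the same chromosome, had 15.2 and 29.7 RPKM against 6.84 and 8.83 RPKM (1.28, SE 0.24, adjusted p = 0.0137). CDC24, CMD1 and MEC1 were picked after their values were seen, as examples of housekeeping functions, and the groups did not overlap for any of them.

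Several named genes of the shifted chromosomes, all of them calls and so picked for large values, had fold changes well above the shift. GAL7, which encodes the uridylyltransferase of galactose use, had 7.84 and 22.2 RPKM in H3H113N-dCcs1-SC against 1.10 and 1.95 RPKM in dCcs1-SC (log2 fold change 3.07, SE 0.64, adjusted p = 0.0229), and 2.34 without H3H113N-dCcs1-SC replicate 2. GAL10, the next gene on the chromosome and of the same pathway, had a log2 fold change of 0.83 and was not called. GAL1, the galactokinase gene that follows it, had 24.2 and 25.1 RPKM against 10.3 and 8.45 RPKM (1.18, SE 0.24, adjusted p = 0.0224). SSA3, an Hsp70 gene induced by stress, had 76.7 and 222 RPKM against 24.8 and 38.8 RPKM (1.97, SE 0.43, adjusted p = 0.0289), and 1.20 without the higher of its H3H113N-dCcs1-SC libraries, replicate 2. GAL7, GAL1 and SSA3 were higher in every library with the allele, and GAL10 and GAL1 lay nearer to the chromosome's shift than GAL7. MOH1, a stationary phase gene, had 82 and 133 RPKM against 21 and 33.4 RPKM, and SPO23, a meiotic gene, had 7.69 and 13.3 RPKM against 1.54 and 1.71 RPKM. ECM13 had 88.4 and 46.9 RPKM against 8.58 and 5.54 RPKM (3.05, and 2.34 without H3H113N-dCcs1-SC replicate 1), and RRT1 had 54.3 and 72.5 RPKM against 6.77 and 3.44 RPKM (3.28, and 3.97 without dCcs1-SC replicate 1). RNR3 on chromosome IX, the damage-inducible large subunit of ribonucleotide reductase, had 13.5 and 14.1 RPKM against 3.93 and 5.34 RPKM (1.39, SE 0.33, adjusted p = 0.0445).

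The faintest rises can only be given as bounds. Of the higher calls, 7 had both dCcs1-SC libraries at or under 3 counts, and their folds are bounds of mean RPKM against that floor per library. LDS1 of chromosome I, a gene of spore wall assembly, had 7.42 and 12.8 RPKM in H3H113N-dCcs1-SC against 0.62 and 0.55 RPKM in dCcs1-SC and was at least 7.86-fold higher. On chromosome II, PAU24 was at least 6.99-fold higher and YBL065W at least 7.68-fold higher, or 4.95-fold without H3H113N-dCcs1-SC replicate 2. Off the shifted chromosomes, COS12 was at least 8.76-fold higher, or 5.22-fold without the same library, and YPR077C was at least 4.90-fold higher. YOR379C and YMR057C were at least 2.79-fold and 2.42-fold higher. YBL065W, YPR077C, YOR379C, YMR057C and YHR137C-A are the 5 called identifiers without a match in the RefSeq annotation. Their overlap with other genes was therefore not computed, and the authors counted without strand.

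Away from chromosomes I, II, IX and XI, 16 of 5433 ORFs tested were called higher (0.294%) and 15 were called lower (0.276%), and all 15 lower calls of the genome are among them. With the ORFs of those 4 chromosomes left out of the fit, an alternative added after the data were seen, 15 were called higher (0.276%) and 8 lower (0.147%). The plot of the calls off the shifted chromosomes shows each library.

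**Figure D3:**
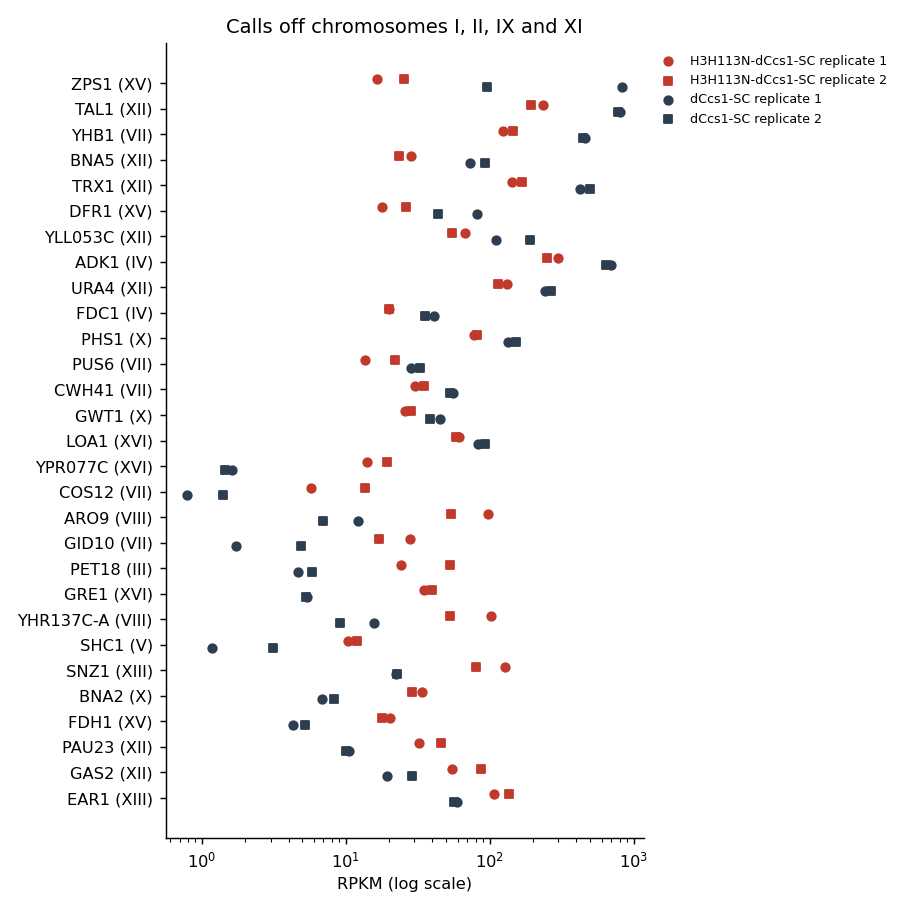
RPKM (x axis, log scale) in each library of H3H113N-dCcs1-SC (red) and dCcs1-SC (dark blue) for the ORFs called off chromosomes I, II, IX and XI, with the chromosome in brackets and circles and squares for replicates 1 and 2. The falls are at the top and the rises at the bottom, YOR379C and YMR057C are left out because a library was at 0, and red and blue points do not overlap in any row.

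TAL1 and TRX1 had the lowest adjusted p of the 15 falls. TAL1, which encodes transaldolase of the non-oxidative pentose phosphate pathway, had 234 and 195 RPKM in H3H113N-dCcs1-SC against 805 and 778 RPKM in dCcs1-SC. Its log2 fold change was -2.08 (SE 0.27, adjusted p = 0.00154), so the parent had 4.21 times as much, and the libraries within each group were close to each other. TRX1, which encodes a cytoplasmic thioredoxin that reduces protein disulfides, had 143 and 168 RPKM against 426 and 493 RPKM (-1.78, SE 0.23, adjusted p = 0.00154), and the parent had 3.42 times as much. YHB1, the flavohaemoglobin that oxidises nitric oxide, had 124 and 145 RPKM against 461 and 447 RPKM (-1.97, SE 0.34, adjusted p = 0.0137). In all 3 genes each library with the allele was far below both parent libraries. With each chromosome centred TAL1, TRX1, YHB1, BNA5 and PHS1 were the 5 lower calls, and YHB1 was not called without either dCcs1-SC library or without H3H113N-dCcs1-SC replicate 2.

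The purine, folate and adenylate list held ADK1 and DFR1 among the falls. ADK1, the adenylate kinase gene on chromosome IV, had 299 and 250 RPKM in H3H113N-dCcs1-SC against 697 and 641 RPKM in dCcs1-SC (log2 fold change -1.48, SE 0.29, adjusted p = 0.0190). DFR1, which encodes dihydrofolate reductase, had 17.9 and 26.2 RPKM against 82.1 and 43.8 RPKM (-1.77, SE 0.41, adjusted p = 0.0393). URA4, the dihydroorotase gene of pyrimidine synthesis, had 132 and 114 RPKM against 243 and 265 RPKM (-1.24, SE 0.24, adjusted p = 0.0167). BNA5, the kynureninase gene of NAD synthesis from tryptophan, had 28.4 and 23.6 RPKM against 72.9 and 92.1 RPKM (-1.85, SE 0.34, adjusted p = 0.0137). DFR1 had the widest spread of these between the parent libraries.

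The other falls are given singly. PHS1, the dehydratase of very long chain fatty acid elongation, had 77.1 and 81.9 RPKM in H3H113N-dCcs1-SC against 133 and 153 RPKM in dCcs1-SC (log2 fold change -1.05, SE 0.20, adjusted p = 0.0137). LOA1, an acyltransferase of lipid droplets, had 61.2 and 58.0 RPKM against 82.6 and 92.1 RPKM, the smallest of the 15 falls at -0.75 (SE 0.17, adjusted p = 0.0403). GWT1, which acylates inositol of the GPI anchor, had 25.8 and 28.3 RPKM against 45.1 and 38.2 RPKM, and CWH41, glucosidase I of glycoprotein processing, had 30.1 and 35.2 RPKM against 55.2 and 52.7 RPKM. Each of these 4 genes was below both parent libraries, with little spread within a group. FDC1, a decarboxylase of aromatic acids, had 20.1 and 20.1 RPKM against 41.1 and 35.5 RPKM, PUS6, a pseudouridine synthase, had 13.6 and 22.05 RPKM against 28.6 and 32.7 RPKM, and YLL053C had 67.0 and 54.5 RPKM against 111 and 190 RPKM. ZPS1, a secreted protein of the zinc regulon, had 16.6 and 25.4 RPKM against 826 and 95.1 RPKM (-4.72, SE 1.14, adjusted p = 0.0490). It had the largest fitted fall, but the parent libraries differed widely, the value was -2.39 without dCcs1-SC replicate 1 and -5.57 without dCcs1-SC replicate 2, and WT-SC libraries had 1754, 35.7 and 993 RPKM.

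Parent levels of the genes that rose off the shifted chromosomes ran up to those of EAR1, at 59.4 and 56.4 RPKM. PET18 on chromosome III had 24.0 and 53.3 RPKM in H3H113N-dCcs1-SC against 4.66 and 5.79 RPKM in dCcs1-SC, a log2 fold change of 2.63 (SE 0.38, adjusted p = 0.00362), and was not called without dCcs1-SC replicate 1 (adjusted p = 0.136). GRE1, a hydrophilin gene induced by stress, had 34.8 and 39.9 RPKM against 5.36 and 5.29 RPKM (2.58, SE 0.49, adjusted p = 0.0137). Both groups were tight for GRE1, and no library of H3H113N-dCcs1-SC came near the parent. SNZ1, which acts in vitamin B6 synthesis and is known from stationary cells, had 127 and 79.9 RPKM against 22.3 and 22.8 RPKM (2.03, SE 0.37, adjusted p = 0.0137). BNA2, the dioxygenase gene at the entry of the kynurenine pathway, had 33.7 and 28.8 RPKM against 6.87 and 8.27 RPKM (1.87, SE 0.37, adjusted p = 0.0190). BNA2 was thus higher and BNA5, further along the same pathway, was lower.

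ARO9, which encodes an aminotransferase of aromatic amino acids, had 97.9 and 54.0 RPKM in H3H113N-dCcs1-SC against 12.1 and 6.96 RPKM in dCcs1-SC (log2 fold change 2.79, SE 0.60, adjusted p = 0.0275). Without single libraries its value lay between 2.13 (H3H113N-dCcs1-SC replicate 1 left out) and 3.31 (dCcs1-SC replicate 1 left out). YHR137C-A had 102 and 53.0 RPKM against 15.8 and 9.06 RPKM, and its value was 1.70 without H3H113N-dCcs1-SC replicate 1 (2.44 with it). Its levels lay close to those of ARO9 in each library, and whether they share reads was not tested, so it may not be a separate rise. GID10, a substrate receptor of the GID ubiquitin ligase, had 27.9 and 16.9 RPKM against 1.72 and 4.88 RPKM (2.73, from 2.07 without dCcs1-SC replicate 1 to 3.49 without dCcs1-SC replicate 2). YHR137C-A and GID10 stayed above the parent in each library. Genes of spore and cell wall formation outside the naming rule were SHC1, at 10.3 and 12 RPKM against 1.18 and 3.14 RPKM (1.64 without dCcs1-SC replicate 1 and 2.98 without dCcs1-SC replicate 2, on the log2 scale), and GAS2, at 54.3 and 87.4 RPKM against 19.4 and 28.6 RPKM. EAR1, an adaptor of the ubiquitin ligase Rsp5 and also outside the rule, had 107 and 135 RPKM against 59.4 and 56.4 RPKM. FDH1, formate dehydrogenase, had 20.2 and 17.9 RPKM against 4.27 and 5.22 RPKM, but only 15.8% of its 50-base windows are unique in the genome, so its reads may come from a near-identical copy.

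The promoters of the 2 genes that held in every fit without 1 library, and of the strongest rise by adjusted p, are shown for the letters they hold. Each runs from 250 bases before to 50 after the coding start on the coding strand, read from R64 at chrXII:837308-837607 for TAL1, chrXII:231964-232263 for TRX1 and chrIII:154610-154909 for PET18, all on the minus strand. Capitals mark CCCCT, the core of the stress response element bound by Msn2 and Msn4.
TAL1: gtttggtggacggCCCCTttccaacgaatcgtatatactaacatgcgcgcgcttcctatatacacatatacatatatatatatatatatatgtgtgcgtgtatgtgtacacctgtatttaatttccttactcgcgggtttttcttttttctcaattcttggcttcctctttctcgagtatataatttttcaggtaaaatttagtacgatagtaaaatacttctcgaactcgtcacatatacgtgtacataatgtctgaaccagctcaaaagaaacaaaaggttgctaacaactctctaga
TRX1: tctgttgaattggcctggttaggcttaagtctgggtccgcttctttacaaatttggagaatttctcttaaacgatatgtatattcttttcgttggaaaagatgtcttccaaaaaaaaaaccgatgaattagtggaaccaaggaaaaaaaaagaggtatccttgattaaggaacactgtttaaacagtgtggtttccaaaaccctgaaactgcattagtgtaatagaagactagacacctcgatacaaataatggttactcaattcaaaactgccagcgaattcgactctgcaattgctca
PET18: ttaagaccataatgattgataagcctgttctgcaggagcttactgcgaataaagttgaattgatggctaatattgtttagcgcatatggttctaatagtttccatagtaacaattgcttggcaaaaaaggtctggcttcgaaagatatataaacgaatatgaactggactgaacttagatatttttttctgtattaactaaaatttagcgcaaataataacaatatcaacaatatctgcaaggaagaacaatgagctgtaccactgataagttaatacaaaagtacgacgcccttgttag
CCCCT was searched on both strands, as was TTACTAA, a form of the site of the oxidative stress factor Yap1, and the motifs do not overlap. CCCCT was in 17.7% of the 62 windows of higher calls and 13.3% of the 15 of lower calls, against 21.7% of all 5988 windows. TTACTAA was in 6.45% of the higher and 0 of the 15 lower, against 7.48% of all. A match is letters only, and neither motif was tested.

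Among the histone genes, RNA of the H4 gene HHF1 was the one called. HHF1 had 2622 and 3467 RPKM in H3H113N-dCcs1-SC against 953 and 945 RPKM in dCcs1-SC (log2 fold change 1.46, SE 0.25, adjusted p = 0.0137). It lies on chromosome II, and with each chromosome centred it was 0.75 and not called. HHT1, its H3 neighbour, had 741 and 885 RPKM against 359 and 324 RPKM (1.03, SE 0.26, adjusted p = 0.0560), and it was called on library totals, by DESeq2 and by limma, with adjusted p between 0.00427 and 0.0160. Of the chromosome XIV pair, HHT2 had 1125 and 1241 RPKM against 1084 and 1531 RPKM (-0.35, adjusted p = 0.595) and HHF2 had 1532 and 1952 RPKM against 1546 and 1571 RPKM (-0.06, adjusted p = 0.955). Summed over both copies, H4 RNA was 4154 and 5418 RPKM against 2499 and 2516 RPKM, and H3 RNA was 1865 and 2126 RPKM against 1443 and 1854 RPKM. The H4 sums did not overlap, and the H3 sums were separated by only a small gap. Reads of these near-identical pairs may be shared, since 78.7% of the windows of HHF1 and HHF2 and 87.8% of those of HHT1 and HHT2 are unique. Over the 11 histone genes 1 was called higher and 0 lower, with a median of -0.06, against 1.02% and 0.228% of all ORFs tested.

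No gene of copper handling was called in the fit of 26 libraries, in which 1.24% of all ORFs tested were called. In lists this short, a count of 0 is near that share. The uptake list, with the regulator MAC1, had 6 members and a median log2 fold change of -0.11, and the list of metallothioneins and copper delivery had 13 members and a median of 0.25, against a median of -0.0002 over all ORFs. CTR1, the main high-affinity copper importer, had 40.7 and 41.9 RPKM in H3H113N-dCcs1-SC against 43.3 and 30.3 RPKM in dCcs1-SC (-0.05, SE 0.61, adjusted p = 0.988). The groups overlapped, and its sign turned on library totals (0.16). CTR3, the other importer, had 7.61 and 11.5 RPKM against 9.98 and 8.13 RPKM (-0.19, and 0.030 on library totals), and FRE1, a surface reductase of copper and iron, had 28.5 and 31.5 RPKM against 33.0 and 25 RPKM (-0.17, and 0.045 on library totals). FRE7 had 7.97 and 12.1 RPKM against 4.86 and 5.18 RPKM, MAC1 had 33.1 and 39.4 RPKM against 27.7 and 24.8 RPKM, and CTR2, the vacuolar exporter, had 67.9 and 57.4 RPKM against 114 and 92.2 RPKM (-0.91, SE 0.30, adjusted p = 0.150). MAC1, FRE7 and CTR2, or 3 of 6, did not overlap between the groups, against 38.3% of all ORFs, and none passed the test.

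The metallothionein copies CUP1-1 and CUP1-2 had 130 and 1030 RPKM and 117 and 976 RPKM in H3H113N-dCcs1-SC, against 159 and 435 RPKM and 170 and 372 RPKM in dCcs1-SC. Their replicates differed more than the groups did, replicate 2 being higher in both groups, and reads of the copies cannot be told apart. CRS5, another metallothionein, had 23.0 and 90.7 RPKM against 25.9 and 53.6 RPKM, and CUP2, the activator of both, had 51.5 and 102 RPKM against 48.5 and 73.6 RPKM. ATX1, the copper carrier of the secretory pathway, had 21.8 and 61.7 RPKM against 32.6 and 26.6 RPKM, and its pump CCC2 had 15 and 21.5 RPKM against 10.8 and 15.7 RPKM. Of the mitochondrial carriers, COX17 had 29.6 and 119 RPKM against 27.3 and 15.3 RPKM (log2 fold change 1.41, SE 0.54, adjusted p = 0.235). SCO1 and SCO2, on the shifted chromosome II, had values of 0.97 and 0.98, and CMC1 on XI had 0.90. Their chromosomes' shifts were 0.72 and 0.36. The upper quartile of fitted values was 1.02 on II, above SCO1 and SCO2, and 0.64 on XI, below CMC1. CMC1 was called on library totals (1.14, adjusted p = 0.0463) and by limma (1.09 and 1.11 with pseudocounts of 1 and 0.1, adjusted p = 0.0334 and 0.0350). COX11, COX19 and COX23 had 0.20, -0.54 and 0.07, with adjusted p of 0.784, 0.685 and 0.977.

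Superoxide and peroxide genes were not called either, with 6 members and a median of 0.16, or 0.13 without CCS1, which was at the floor in both groups. SOD1, the dismutase that Ccs1 serves, had 2296 and 2316 RPKM in H3H113N-dCcs1-SC against 2584 and 2880 RPKM in dCcs1-SC (log2 fold change -0.45, SE 0.35, adjusted p = 0.652). SOD2, the mitochondrial manganese dismutase, had 470 and 471 RPKM against 276 and 475 RPKM, and the catalase gene CTT1 had 46.2 and 93.4 RPKM against 10.01 and 112.7 RPKM. CTT1 had the widest spread of this list in the parent. CTA1, the peroxisomal catalase, had 29.0 and 43.5 RPKM against 17.6 and 24.9 RPKM, and CCP1, cytochrome c peroxidase, had 295 and 253 RPKM against 150 and 273 RPKM. For the lists of this paragraph too, the share called over all ORFs tested was 1.24%. Of the high-affinity iron uptake and iron scarcity genes, 0 of 29 were called and the median was 0.04. The lysine biosynthesis genes, whose pathway fails in cells short of superoxide dismutase, had 0 of 9 called and a median of -0.10. Over the 6 of them off the shifted chromosomes the median was -0.38, against -0.08 over all ORFs there. LYS20, a homocitrate synthase gene, had 146 and 89.7 RPKM against 192 and 148 RPKM (-0.70, adjusted p = 0.576).

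Among other metabolic lists, genes of purine, folate and adenylate metabolism mostly lay below 0. Of 24 tested, 2 were called lower (ADK1 and DFR1) and 0 higher, 22 had a value below 0, and the median was -0.65. Over all 6592 ORFs tested, 0.228% were called lower, 3297 had a value below 0 and the median was -0.0002. ADE6, an enzyme of the purine route, had 112.7 and 82.9 RPKM in H3H113N-dCcs1-SC against 182 and 184 RPKM in dCcs1-SC (-1.09, SE 0.28, adjusted p = 0.0673), and ADE17 had 63.3 and 85.3 RPKM against 126 and 246 RPKM (-1.54, adjusted p = 0.257). SHM2, the cytosolic serine hydroxymethyltransferase, had 213 and 149 RPKM against 376 and 331 RPKM (-1.15, adjusted p = 0.169). None of these 3 genes passed the test. Fatty acid and ergosterol genes had 0 of 26 called, 25 values below 0 and a median of -0.48, with ELO1 alone above 0. ERG20, the farnesyl diphosphate synthase, had 251 and 314 RPKM against 388 and 388 RPKM (-0.68, SE 0.21, adjusted p = 0.126).

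The pentose phosphate list had 1 of 11 called, TAL1, and a median of -0.49. All calls of the lists in this paragraph were falls, and 0.228% of all ORFs tested were called lower. ZWF1, its dehydrogenase of entry, had 180 and 233 RPKM in H3H113N-dCcs1-SC against 183 and 247 RPKM in dCcs1-SC, so the groups overlapped. NQM1, the second transaldolase gene, had 48.6 and 65.3 RPKM against 12.1 and 23.0 RPKM (1.51, SE 0.83, adjusted p = 0.463), and TKL2, the minor transketolase on chromosome II, had 54.5 and 43.9 RPKM against 6.35 and 11.01 RPKM (2.34, SE 0.59, adjusted p = 0.0593). Values of NQM1 and TKL2 were thus above the parent and that of TAL1 below it, though neither rise was called. Of the 11 values in the list, 3 were above 0 and 8 below. The thioredoxin and peroxiredoxin list had 1 of 11 called, TRX1, and a median of 0.14. TRX2, the other cytoplasmic thioredoxin, had 517 and 584 RPKM against 454 and 407 RPKM (0.14, adjusted p = 0.931), and SRX1, sulfiredoxin, had 54.9 and 27.9 RPKM against 3.93 and 12.6 RPKM (2.31, SE 0.67, adjusted p = 0.103). Of the oxidative and nitrosative stress enzymes, YHB1 was the 1 of 19 called and the median was 0.33, or 0.09 over the 14 off the shifted chromosomes. The zinc list had ZPS1 as the 1 of 10 called, 9 values below 0 and a median of -0.62. ZRT1, the high-affinity zinc importer, had 417 and 95.3 RPKM against 2462 and 862 RPKM (-2.84, SE 0.75, adjusted p = 0.0717).

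**Figure D4:**
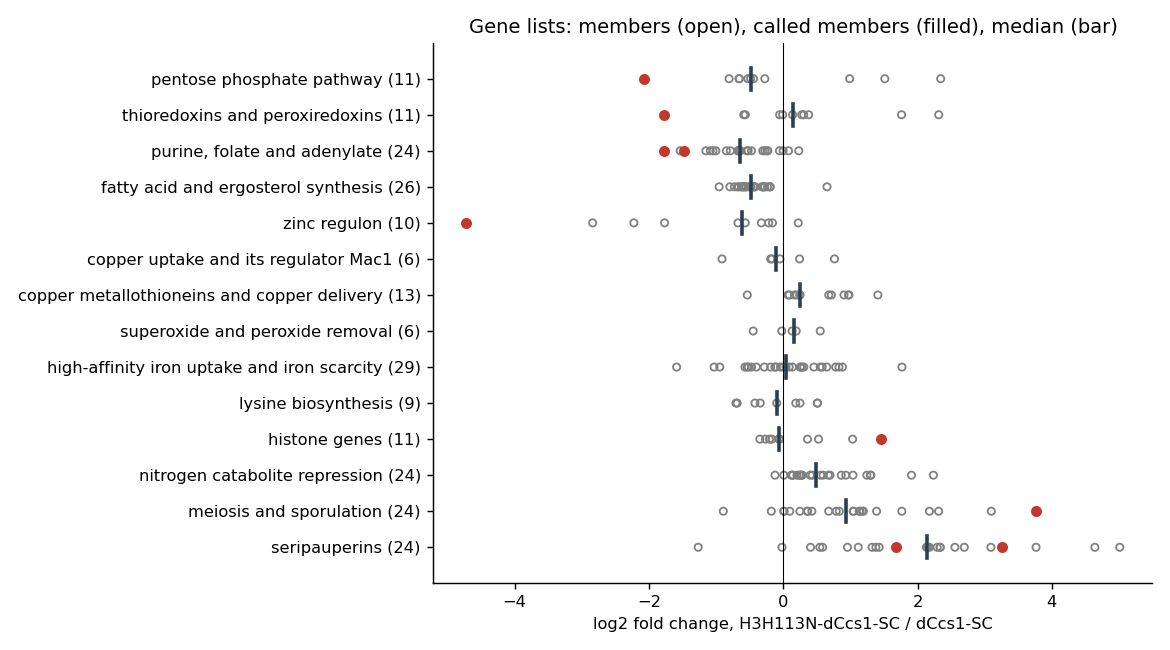
Log2 fold change of H3H113N-dCcs1-SC over dCcs1-SC (x axis) for the members of 14 gene lists, with the number tested in brackets. Open circles are members, filled red circles are called members and bars are medians, which lie at -0.65 for purine and folate genes, between -0.11 and 0.25 for the copper, superoxide, iron and lysine lists, and at 2.14 for the seripauperins.

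Lists of genes that are nearly silent in growing cells had medians above 0. The 24 genes of meiosis and sporulation had 1 called higher (LDS1), 22 values above 0 and a median of 0.94, with 22 of the 24 off the shifted chromosomes. Of all 6592 ORFs tested, 1.02% were called higher and 3288 had a value above 0. SMA1, a gene of spore membrane assembly, had 10.3 and 12.1 RPKM in H3H113N-dCcs1-SC against 0.41 and 2.18 RPKM in dCcs1-SC (3.10, SE 0.75, adjusted p = 0.0501), and DIT1, a gene of the dityrosine layer of the spore wall, had 14.6 and 21.1 RPKM against 5.06 and 6.66 RPKM (1.39, SE 0.37, adjusted p = 0.0773). The seripauperins, a subtelomeric family of cell wall proteins, had 2 of 24 called higher (PAU24 and PAU23) and a median of 2.14. In 19 of them both parent libraries were at or under 3 counts, and 8 were at that floor in both groups. With the rest at their bounds the median was 0.88 over 16, and reads of this family are shared among near-identical copies. PAU23 had 32.2 and 46.0 RPKM against 10.5 and 10.01 RPKM (1.68, SE 0.38, adjusted p = 0.0367). Genes under nitrogen catabolite repression had 0 of 24 called, 23 values above 0 and a median of 0.49, which was 0.27 over the 15 off the shifted chromosomes, and over all ORFs off them the median was -0.08.

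The stationary phase, trehalose and glycogen list had 3 of 20 called higher (MOH1, SNZ1 and GRE1) and a median of 0.10. Beside the counts of this paragraph, 1.02% of all ORFs tested were called higher and 0.228% lower. NAD, vitamin B6 and thiamine genes had BNA2 called higher and BNA5 lower among 25, with a median of 0.27, and DNA damage genes had RNR3 called among 14, with a median of 0.23. HUG1, an inhibitor of ribonucleotide reductase that is induced by damage, had 31.7 and 51.8 RPKM in H3H113N-dCcs1-SC against 8.75 and 10.4 RPKM in dCcs1-SC (1.88, SE 0.52, adjusted p = 0.0863). Heat shock chaperones had SSA3 called among 21 and a median of 0.37, and hexose transport and fermentation had FDH1 called among 28 and a median of 0.05. Off the shifted chromosomes the median was -0.01 for 16 chaperones, 0.11 for 22 genes of the NAD list and 0.10 for 11 of the citric acid cycle. It was 0.15 for 17 genes of the stationary phase list, and -0.08 over all ORFs there. No gene was called among 24 of sulfate assimilation and methionine (median 0.01), 16 of the phosphate regulon (0.20), 39 nuclear genes of oxidative phosphorylation (0.13), 13 of the citric acid cycle (0.25), 14 heme-regulated and hypoxic genes (0.04) or 25 cell wall proteins (-0.02). Of the 8 mating-type genes none was called, and HIS3 was the 1 gene tested of the 4 that check the strain.

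The effect of the allele where CCS1 was present gave a second reading whose groups share no library with this one. Both readings took the spread of each ORF from the same fit of 26 libraries, so their calls are not independent. H3H113N-SC against WT-SC had 105 ORFs called of 6592 (1.59%), 79 higher (1.2%) and 26 lower (0.394%). Of the 82 calls without CCS1, 34 were called there in the same direction, 27 higher and 7 lower, which is 41.5% of the calls without CCS1 and 32.4% of those with it. All 15 falls had a value below 0 and 64 of the 67 rises a value above 0 where CCS1 was present. Over all ORFs tested the median there was -0.05, and the share of all ORFs with the same sign in both readings is not given. Chromosome II, itself shifted up in H3H113N-SC, held 36 of the 67 rises, all 36 above 0 there, while the 10 on chromosome I had 7 above 0 and a median of 0.24, and the 16 off the shifted chromosomes were all above 0. TAL1 had a mean of 205 ± 22.2 RPKM in H3H113N-SC against 800 ± 127 RPKM in WT-SC (SD, n = 3 each), and TRX1 had 203 ± 7.43 RPKM against 510 ± 122 RPKM. Fitted falls of TAL1 were -2.08 without CCS1 and -2.18 with it, and those of TRX1 were -1.78 and -1.54. ADK1 had -1.48 without CCS1 and -1.36 with it, ARO9 had 2.79 and 2.71, and BNA2 had 1.87 and 2.52. These 5 genes were called in both backgrounds.

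**Figure D5:**
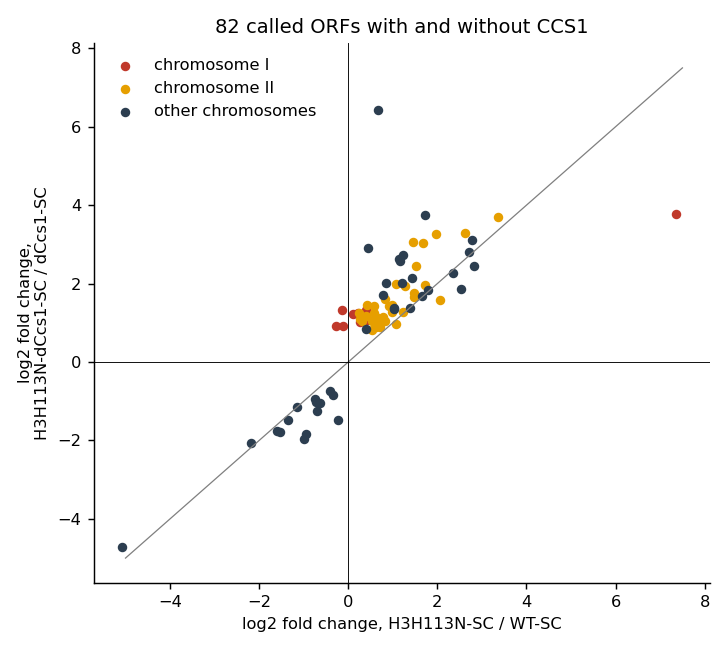
Log2 fold change of the 82 called ORFs without CCS1 (y axis, H3H113N-dCcs1-SC over dCcs1-SC) and with it (x axis, H3H113N-SC over WT-SC), coloured by chromosome, with the line of equal values. The 7 ORFs with the parent at or under 3 counts are drawn at their fitted values. The 15 falls lie below 0 on both axes, and calls of chromosome I lie mostly above the line.

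The difference of the effects, with and without CCS1, was tested in the same fit and gave no call by edgeR (159 ORFs, or 2.41%, at an unadjusted p under 0.05) and 4 by DESeq2 (0.0607%; 156 at an unadjusted p under 0.05). The 4 were PRP45, GPB2, ERP1 and SWD1, all on chromosome I and all with a higher value of the effect without CCS1, with differences of 1.48, 1.05, 1.19 and 1.24 on the log2 scale and adjusted p of 0.0136, 0.00706, 0.00437 and 0.0117 by DESeq2. PRP45, a splicing factor gene, had 80.3 and 109 RPKM in H3H113N-dCcs1-SC against 27.3 and 38.1 RPKM in dCcs1-SC. The median difference was 0.83 on chromosome I, where 91.2% of ORFs were above 0, 0.26 on chromosome II and -0.38 on chromosome V. For TAL1 the difference was 0.10, with an interval of -0.57 to 0.78 (2 SE to each side), and for TRX1 it was -0.24, with an interval of -0.82 to 0.34. PET18 had a difference of 1.49 (0.55 to 2.43) and YHB1 of -0.97 (-1.82 to -0.12), neither called. The parents differed for PET18, at 5.23 ± 0.80 RPKM in dCcs1-SC (SD, n = 2) and 16.6 ± 3.65 RPKM in WT-SC (SD, n = 3).

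The same strains in SC-lys, made with another kit and incubated for 24 h, gave values to set beside these. TAL1 had 330 ± 59.6 RPKM in H3H113N-dCCs1-SC-lys against 758 ± 45.9 RPKM in dCCs1-SC-lys (SD, n = 2 each), and TRX1 had 64.3 ± 9.91 RPKM against 246 ± 48.4 RPKM. PET18 had 64.6 ± 13.4 RPKM against 15.1 ± 0.72 RPKM, and HHF1 had 4554 ± 133 RPKM against 599 ± 33.2 RPKM. Fitted log2 fold changes in SC-lys were -1.51 for TAL1, -2.24 for TRX1, 1.79 for PET18 and 2.62 for HHF1, and edgeR called all 4 among 707 calls of 6592 (10.7%). ZPS1, with -0.18 in SC-lys, and ARO9, with 0.69, were not called there.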

How the data were processed

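The authors deposited raw read counts and RPKM values of 6692 ORFs in 28 libraries of 14 groups. TopHat2 2.0.9 and the builds R64 and sacCer3 are named in the submitters' processing notes, and per the labels strand was not used. Recomputed RPKM differed from the deposited RPKM by a relative 3.82e-09 at most. The deposited starts equalled RefSeq R64 for 5375 of 5377 ORFs, and 6008 of 6692 identifiers matched it. Symbols came from the authors' smaller table and RefSeq.

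Counts were fitted with edgeR 4.0.16 in R 4.3.3 (quasi-likelihood test, TMM, 1 mean per group, 26 libraries of the 12 replicated groups, minimum mean RPKM 1), and p-values were adjusted by Benjamini-Hochberg within each comparison. The fit had 14 residual degrees of freedom and a common biological variation of 29.5%. On simulated counts it called 82%, 10%, 18% and 52% of ORFs changed by 2, 1, -1 and -2 on the log2 scale, and 3 of 6392 unchanged ones. Alternatives used DESeq2 1.42.0 and limma 3.58.1 on log2(RPKM + 1) or log2(RPKM + 0.1), other scalings, filters and libraries. Fold bounds are on the scale of library totals. For chromosome shifts the minimum mean RPKM was 5.

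The members and lists were chosen with earlier results of these data known. Genes named are the called ORFs with the 15 largest rises and falls (minimum mean RPKM 5, groups not overlapping), called list members, copper, superoxide, H3 and H4 genes. Other genes named, such as uncalled members of other lists, were chosen after their values were seen. For the difference of effects, the replicate numbers of H3H113N-SC and WT-SC marked shared deviations (correlations 0.61, 0.50 and 0.80 for 3 pairs).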

Additional observations from a re-analysis of the deposited data

Results flagged for a closer look

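Opposite sides were seen for CTR1 in log2(RPKM + 1), and for chromosomes III and XVI in their shift. Every library with the allele lay on one side of its parents' mean without CCS1 and on the other side with it. CTR1, the copper importer, had a mean difference in log2(RPKM + 1) of 0.19 between H3H113N-dCcs1-SC and dCcs1-SC, and of -0.40 between H3H113N-SC and WT-SC. On library totals, the scale of RPKM, the median log2 fold change over all ORFs was itself 0.21 without CCS1. With TMM scaling, in the edgeR fit, the value of CTR1 was below 0 both without and with CCS1. In the edgeR fit its effects differed by 0.59 on the log2 scale, with an interval of -0.99 to 2.16 (2 SE to each side) and an adjusted p of 1, so the difference was within the spread. The shift of chromosome III was -0.0387 in H3H113N-dCcs1-SC and 0.179 in H3H113N-SC, each against its own parent. The shift of chromosome XVI was 0.0703 in H3H113N-dCcs1-SC and -0.0484 in H3H113N-SC. For both chromosomes the difference was not tested.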

How the results depend on the processing

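The 82 calls (67 higher, 15 lower) depended on the fit. With only the 4 libraries, and with only the 10 SC libraries, 0 were called, 0 higher and 0 lower. Library totals gave 177 (167 higher), DESeq2 233 (186 higher, 47 lower), limma 173 (162 higher) with a pseudocount of 1 and 154 (143 higher) with 0.1, and each chromosome centred 17 (12 higher, 5 lower). Leaving out chromosomes I, II, IX and XI, chosen after seeing the data, gave 23 (15 higher, 8 lower). Median-ratio scaling, no filter and a minimum mean RPKM of 5 each kept 81 of the 82. Fits without 1 library of the comparison called between 3 and 101, with 1 to 77 higher and 2 to 24 lower. The labels number the replicates of both groups 1 and 2, but nothing says that a number marks a shared culture. A replicate block gave 280 calls (202 higher, 78 lower), with a correlation of 0.53 between the groups' replicate differences, and kept all 82. For the difference of effects DESeq2 called 4, all 4 higher, and every edgeR and limma alternative called 0, the replicate block included. The cause of these changes was not tested. The shift of chromosome I was between 0.682 and 0.802 without single libraries, that of II between 0.707 and 0.729 (0.707 with a minimum mean RPKM of 1), and that of IX between 0.221 and 0.295. Of the uncalled copper, superoxide, H3 and H4 genes, HHT1 was called on library totals, by DESeq2, by both limma settings and under the replicate block (adjusted p = 0.0218), and without WT-SC replicate 3 or H3H113N-SC replicate 1 or 3 (0.0405 to 0.0479), CMC1 on library totals and by both limma settings, and CTR2 under the replicate block (-0.92, adjusted p = 0.0473). Some genes that were not called changed sign. On library totals the log2 fold change was 0.16 for CTR1, 0.030 for CTR3, 0.045 for FRE1, 0.20 for CTT1 and 0.16 for HHF2. By limma with pseudocounts of 1 and 0.1 it was 0.19 and 0.19 for CTR1, 0.051 and 0.053 for CTR3, 0.059 and 0.062 for FRE1, 0.92 and 0.96 for CTT1, and 0.15 and 0.15 for HHF2. With each chromosome centred it was 0.15 for CTT1, -0.15 for CCP1 and 0.078 for HHF2, and CTT1 was 0.67 under the replicate block. Without chromosomes I, II, IX and XI it was 0.054 for CTR1, 0.077 for CTT1 and 0.044 for HHF2. Without single libraries it ran between -0.30 and 0.28 for CTR1, -0.35 and 0.021 for CTR3, -0.38 and 0.086 for FRE1, -0.31 and 0.42 for CUP2, -1.25 and 1.52 for CUP1-1, -1.27 and 1.54 for CUP1-2, -0.81 and 0.91 for CRS5, -0.55 and 0.70 for ATX1, -0.55 and 0.47 for COX23, -0.18 and 0.54 for SOD2, -0.91 and 2.52 for CTT1, and -0.15 and 0.65 for CCP1. Depth and 2 libraries a group limit what can be seen. On simulated counts 10% of ORFs raised by 1 on the log2 scale were called, so an uncalled gene is not shown to be unchanged.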
